A study of Homo sapiens with 8 samples.

Results

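Iron storage and uptake genes were followed through ribosome profiling of METTL5-WT and METTL5-KO cells. The set was fixed by name and held 8 genes: the ferritin chains FTH1 and FTL, the transferrin receptor TFRC, its ligand TF, the exporter SLC40A1, the importer SLC11A2, and the regulators IREB2 and ACO1. The translation efficiency (TE) table of 11244 genes held 6 of them, whereas TF and SLC40A1 appeared only in the input count table. METTL5 is the methyltransferase that places N6-methyladenosine on 18S rRNA, and the comparison asked which transcripts change in abundance, in ribosome-protected fragments (RPF) or in TE when it is lost. The labels give the cells as HepG2, an established line from a human liver cancer. The METTL5-WT cells carried intact METTL5, and the METTL5-KO cells carried a CRISPR/Cas9 deletion within it. All plates of both genotypes received cycloheximide, an inhibitor that arrests elongating ribosomes, at 100 µg/mL for 7 min. From each lysate a portion was kept as input RNA and the remainder was digested with micrococcal nuclease to leave RPF, which gave 4 groups of 2 libraries. By the study's methods the lines were expanded from single cells. The clone behind each replicate was not given, so clone and genotype cannot be told apart. The labels do not say whether replicates were separate cultures, so p-values measure the spread between these libraries.

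Cellular iron is stored inside a shell built of ferritin heavy (FTH1) and light (FTL) chains. It enters most cells as transferrin bound to TFRC, crosses the endosomal membrane through SLC11A2 (DMT1), and leaves through ferroportin (SLC40A1). The iron regulatory proteins ACO1 (IRP1) and IREB2 (IRP2) bind a small hairpin, the iron responsive element, when iron is scarce. Bound upstream of the coding sequence the hairpin blocks ribosome loading, as in both ferritin mRNAs, and bound in the 3′ untranslated region (3′ UTR) it protects the mRNA from decay, as in TFRC.

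The hairpins were located to show which genes of the set carry this sequence and where. The sense strand of each canonical transcript (GENCODE release 44, hg38) was searched for a C, any 5 bases and the loop CAGTGN, followed by 5 bases that pair with the 5 before the loop, G-U pairs allowed, and with at least 3 of 5 pairs in the stem below the bulged C. The sequences are written 5′ to 3′ as DNA, with the loop in capitals.
FTH1, 5′ UTR, chr11:61967575-61967601, minus strand: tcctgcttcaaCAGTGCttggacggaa
FTL, 5′ UTR, chr19:48965336-48965362, plus strand: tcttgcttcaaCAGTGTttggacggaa
SLC40A1, 5′ UTR, chr2:189580662-189580688, minus strand: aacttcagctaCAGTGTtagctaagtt
TFRC, 3′ UTR, chr3:196050980-196051006, minus strand: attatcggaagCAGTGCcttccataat
TFRC, 3′ UTR, chr3:196050576-196050602, minus strand: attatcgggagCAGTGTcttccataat
TFRC, 3′ UTR, chr3:196050511-196050537, minus strand: tgtatcggagaCAGTGAtctccatatg
TFRC, 3′ UTR, chr3:196050464-196050490, minus strand: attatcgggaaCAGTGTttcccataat

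The hairpins of FTH1 and FTL lay 154 and 150 bases before their coding sequences and that of SLC40A1 206 bases before. These distances start at the end of the 5 pairs next to the loop. In TFRC the bulged C lay 943 to 1459 bases beyond the last coding base before the stop codon. TF held 1 match far out in its 3′ UTR, 14061 bases beyond coding, and SLC11A2, IREB2 and ACO1 held 0 matches under these letters. Each of these 3 held a partial site in its 3′ UTR, with 4 of the 5 pairs next to the loop. Those sites of SLC11A2, IREB2 and ACO1 lay 36, 2834 and 2883 bases beyond coding. They held 1, 3 and 1 of 5 pairs below the bulged C, so those of SLC11A2 and ACO1 missed that minimum too. How many other transcripts hold such a partial site was not counted. So strict a pattern can miss elements, and 0 matches does not show that a gene lacks one. Among 20457 canonical coding transcripts, 10 (0.0489%) held such a match in the 5′ UTR and 31 (0.152%) in the 3′ UTR, and 77 (0.376%) held one anywhere. A match is a description of the sequence, and binding was not measured.

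The input libraries held 10710226 to 15307257 counts, and the RPF libraries held 3970779 and 4592443 reads in METTL5-WT against 8626705 and 9255921 in METTL5-KO. RPF values of METTL5-WT are therefore the less precise. METTL5 itself, the check of the labels, had 490 and 542 input counts in METTL5-WT against 208 and 151 in METTL5-KO, a log2 change of -1.86 ± 0.18 (SE). The markers went against the cell label. The 6 hepatocyte genes checked (ALB, AFP, APOA1, APOB, TTR and SERPINA1) summed to 2 to 4 counts per METTL5-WT input library and 5 to 12 per METTL5-KO library, with TTR and SERPINA1 at 0 in all 4. COL3A1, a fibrillar collagen, had 3317 and 3042 counts in METTL5-WT against 2536 and 3191 in METTL5-KO. The cells are therefore called here only by genotype, and no cell type is assigned. The 4 erythroid markers checked, hemoglobin genes among them, were at 0 in all 4 input libraries, and 4 macrophage markers (CD163, CD68, SPI1, MARCO) summed to 2 to 4 counts.

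Ferritin mRNA rose in METTL5-KO. Input was measured as counts, and levels are given below as normalised reads, that is, reads scaled by a size factor per library so that input and RPF share a scale. FTH1 (ENSG00000167996, chr11:61959718-61967634) had 3349.8 and 3186 normalised reads in METTL5-WT input against 7021 and 6589 in METTL5-KO input. FTL (ENSG00000087086, chr19:48965309-48966879) had 8696 and 9402 in METTL5-WT input against 18758 and 26303 in METTL5-KO input. For both chains every METTL5-KO library lay above every METTL5-WT library, and the METTL5-KO pair was wider apart for FTL. Here and below, such a lack of overlap is weak, since exact permutation of 2 against 2 libraries cannot go below p = 0.333. The share of all genes without overlap was not counted, so non-overlap only describes the values. The log2 change in abundance was 1.04 ± 0.11 (SE) for FTH1, with adjusted p = 3.33e-07 (edgeR quasi-likelihood, Benjamini-Hochberg), a 2.06-fold rise. For FTL it was 1.30 ± 0.14, with adjusted p = 1.98e-07 (edgeR), a 2.47-fold rise. Among all 14054 genes tested these changes stood at the 94.8 and 96.4 percentile. In bulk libraries, more RNA per cell and more cells carrying the RNA cannot be told apart.

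Ferritin footprints also rose, by less than the mRNA. RPF of FTH1 were 2397 and 2377 normalised reads in METTL5-WT against 3089.6 and 3139 in METTL5-KO. RPF of FTL were 3811 and 3119 in METTL5-WT against 5079 and 5302 in METTL5-KO. Both chains had non-overlapping genotypes in RPF as well. The RPF log2 change was 0.38 ± 0.09 (SE) for FTH1, a 1.30-fold rise (limma adjusted p = 0.00535, edgeR on recovered reads adjusted p = 0.0098). It was 0.59 ± 0.14 for FTL, a 1.51-fold rise (limma adjusted p = 0.00393, edgeR adjusted p = 0.0014). TE, taken here as the ratio of RPF to input in the same lysate, compares footprints with the message that was there to be translated. The TE of FTH1 was 0.716 and 0.746 in METTL5-WT lysates against 0.440 and 0.476 in METTL5-KO lysates. The TE of FTL was 0.438 and 0.332 in METTL5-WT lysates against 0.271 and 0.202 in METTL5-KO lysates. Every METTL5-KO lysate lay below every METTL5-WT lysate for both chains. The TE log2 change was -0.67 ± 0.13 (SE) for FTH1, which brought it to 0.627 times its METTL5-WT level (limma adjusted p = 0.0107, edgeR adjusted p = 0.0041). It was -0.71 ± 0.19 for FTL, a 1.63-fold fall (limma adjusted p = 0.0465, edgeR adjusted p = 0.0106). In the ordering of TE changes over 11240 genes, FTH1 stood at the 9.22 percentile and FTL at the 8.45 percentile. The limma call for FTH1 was lost when any single lysate was left out (adjusted p 0.0539 to 0.0966). That for FTL was lost without METTL5-WT replicate 1 (adjusted p = 0.265) or METTL5-KO replicate 2 (adjusted p = 0.280), after a GC trend was removed (log2 change -0.54, adjusted p = 0.0838) and with libraries centred on their median (adjusted p = 0.0571). It was kept with the GC trend removed and the lysate as a block (adjusted p = 0.0266). Without the variance trend neither passed in TE (limma adjusted p = 0.148 for FTH1 and 0.236 for FTL). The RPF call of FTH1 was lost without METTL5-WT replicate 1 (adjusted p = 0.0533) or replicate 2 (adjusted p = 0.0630), and that of FTL without METTL5-WT replicate 2 (adjusted p = 0.0553).

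**Figure D1:**
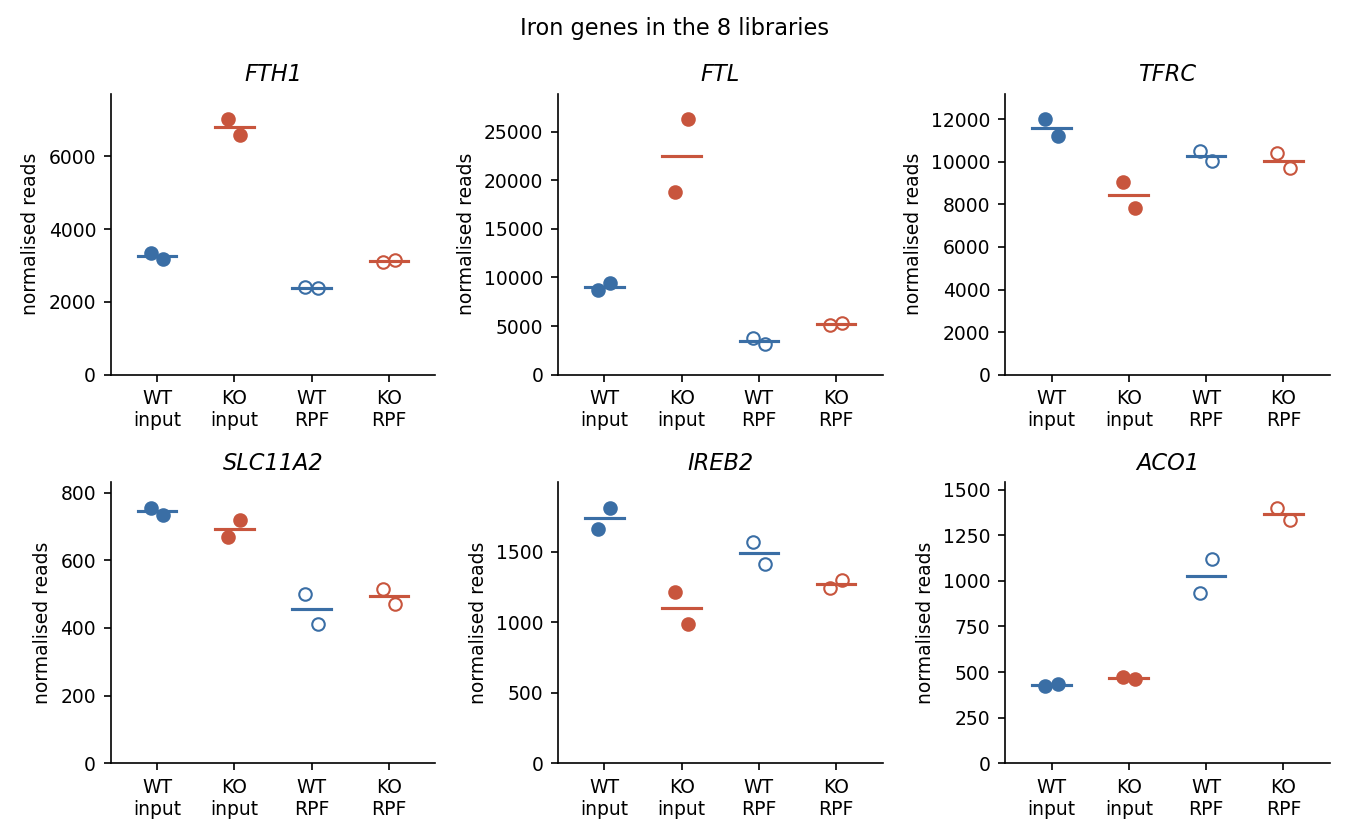
Normalised reads (vertical axis, from 0, each gene on its own scale) of the 6 iron genes of the TE table in the 8 libraries. Filled points are input and open points RPF, blue is METTL5-WT and red METTL5-KO, and the bar is the mean of 2 libraries. FTL input runs from 8696 and 9402 in METTL5-WT to 18758 and 26303 in METTL5-KO, whereas TFRC RPF overlap between genotypes.

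The balance of light to heavy chain was compared per length, since levels of different genes are comparable only in that form. Per kb of transcript, the ratio of FTL to FTH1 in input was 3.59 and 4.08 in METTL5-WT against 3.69 and 5.51 in METTL5-KO. These ranges overlapped, and the highest value came from METTL5-KO replicate 2. Per kb of coding sequence, the ratio of FTL to FTH1 in RPF was 1.66 and 1.37 in METTL5-WT against 1.72 and 1.77 in METTL5-KO. These did not overlap, but the METTL5-WT values lay further from each other than the nearer one lay from METTL5-KO.

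Both ferritin genes have near-identical processed copies elsewhere in the genome, so footprints from them are hard to place. Of 520 stretches of 30 bases in the FTH1 coding sequence, 469 (90.2%) had another exact copy in hg38. For FTL it was 292 of 496 (58.9%), for IREB2 18 stretches (0.629%), and for the coding sequences of TFRC, ACO1 and SLC11A2 it was 0. Ferritin RPF levels, the RPF ratio of FTL to FTH1 and the ferritin TE are uncertain to that extent. How many reads were lost or moved, and whether equally for both chains, was not tested. In input, the 25 annotated FTH1 pseudogenes together held 2.42% to 3.10% of the FTH1 count per library. The 16 FTL pseudogenes held 1.16% to 1.53% of the FTL count. The ferritin input calls were kept when these counts were added to the parent genes.

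TFRC, the receptor that brings transferrin iron into the cell, moved the other way in abundance. TFRC (ENSG00000072274, chr3:196027183-196082096) had 12009 and 11192 normalised reads in METTL5-WT input against 9038 and 7832 in METTL5-KO input. The genotypes did not overlap. The abundance log2 change was -0.47 ± 0.12 (SE), a 1.39-fold fall (edgeR adjusted p = 0.00511). That call was lost without METTL5-WT input replicate 1 (adjusted p = 0.270) or replicate 2 (adjusted p = 0.116). RPF of TFRC were 10510.1 and 10058 in METTL5-WT against 10399 and 9709 in METTL5-KO. The footprint ranges overlapped, with a log2 change of -0.03 ± 0.11 (limma adjusted p = 0.843). The TE of TFRC was 0.875 and 0.899 in METTL5-WT lysates against 1.15 and 1.24 in METTL5-KO lysates. Every METTL5-KO lysate was thus the higher, yet the TE log2 change of 0.43 ± 0.15 did not pass in limma (adjusted p = 0.101). It passed with DESeq2 on recovered reads (adjusted p = 0.0379).

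TF and SLC40A1 were hardly present, as were the hepatocyte markers above. TF, the plasma carrier of iron that hepatocytes secrete, had 2 and 1 input counts in METTL5-WT against 0 and 0 in METTL5-KO. SLC40A1, the only known cellular iron exporter, had 0 counts in all 4 input libraries. Both genes were at or under the floor of 3 counts per library, so no fold change was formed. SLC40A1 carries a ferritin-like 5′ hairpin (above), but its translation could not be followed. Of the TF exons, 313 of 26038 bases (1.20%) lay in exons of other genes.

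SLC11A2, which carries ferrous iron out of the endosome, passed in none of the genotype comparisons. SLC11A2 (ENSG00000110911, chr12:50979401-51028566) had 756 and 734 normalised reads in METTL5-WT input against 667 and 718 in METTL5-KO input. Its RPF were 501 and 411 in METTL5-WT against 515 and 472 in METTL5-KO. Input did not overlap between genotypes but the gap was small, and RPF overlapped. The log2 changes were -0.12 ± 0.12 (SE) in input (edgeR adjusted p = 0.524), 0.12 ± 0.13 in RPF (limma adjusted p = 0.529) and 0.22 ± 0.18 in TE (limma adjusted p = 0.495).

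Of the regulators, IREB2 fell in abundance and ACO1 rose in footprints. IREB2 (ENSG00000136381, chr15:78437431-78501453), the iron regulatory protein that is degraded when iron is plentiful, had 1659 and 1812 normalised reads in METTL5-WT input. In METTL5-KO input it had 1210.4 and 986. The genotypes were separate, with a log2 change of -0.67 ± 0.12 (SE), which is 0.627 times the METTL5-WT level (edgeR adjusted p = 0.000268). RPF of IREB2 were 1568 and 1414 in METTL5-WT against 1239.7 and 1297 in METTL5-KO. They also did not overlap, but the log2 change of -0.23 ± 0.11 did not pass (limma adjusted p = 0.142). The TE of IREB2 was 0.945 and 0.780 in METTL5-WT lysates against 1.024 and 1.315 in METTL5-KO lysates, a log2 change of 0.43 ± 0.16 (limma adjusted p = 0.123).

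ACO1 (ENSG00000122729, chr9:32384603-32454769) encodes a protein that is a cytosolic aconitase when it holds an iron-sulfur cluster and an RNA-binding repressor when it does not. It had 426 and 434 normalised reads in METTL5-WT input against 473 and 464 in METTL5-KO input. That is a log2 change of 0.11 ± 0.12 (SE; edgeR adjusted p = 0.572). RPF of ACO1 were 934 and 1121 in METTL5-WT against 1403 and 1337 in METTL5-KO. The METTL5-KO footprints were the higher in both libraries, by 0.42 ± 0.12 on the log2 scale, a 1.34-fold rise (limma adjusted p = 0.0129). The TE of ACO1 was 2.19 and 2.58 in METTL5-WT lysates against 2.97 and 2.88 in METTL5-KO lysates. Its TE log2 change of 0.30 ± 0.17 did not pass (limma adjusted p = 0.307). The RPF call of ACO1 was lost without METTL5-WT replicate 1 (adjusted p = 0.203) and without either METTL5-KO replicate (adjusted p = 0.0923 and 0.0544).

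**Figure D2:**
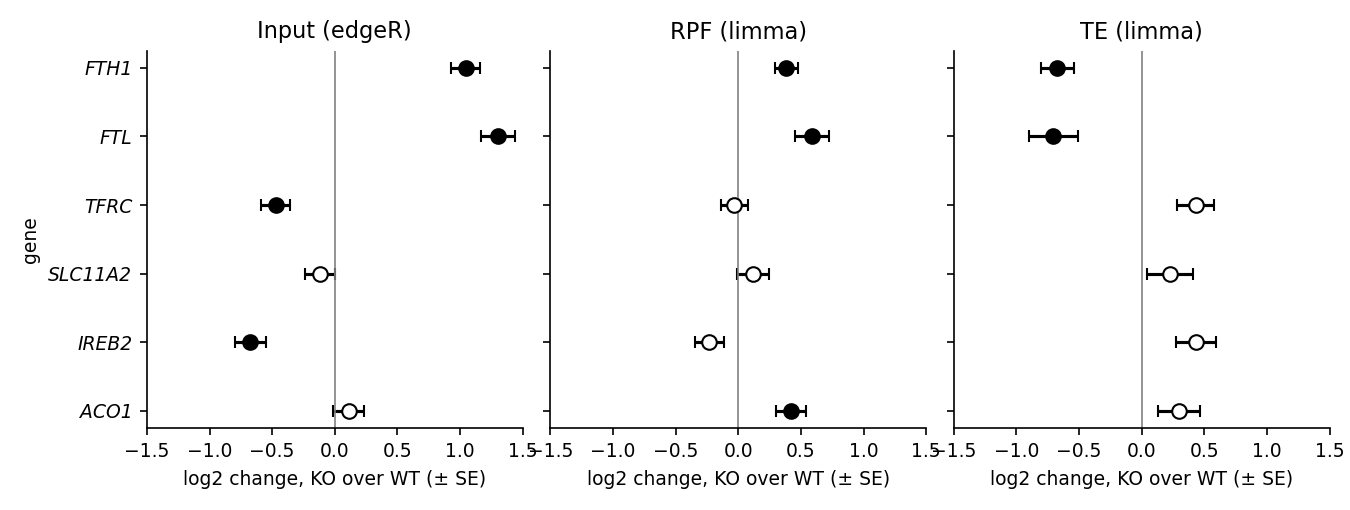
Log2 change in METTL5-KO over METTL5-WT (horizontal axis, ± SE) of the 6 iron genes in input, RPF and TE, with 2 libraries of each type per genotype. Filled points passed an adjusted p of 0.05, and FTH1 and FTL lie right of 0 in input (1.04 and 1.30) and RPF and left of 0 in TE (-0.67 and -0.71).

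In counts, 2 of the 6 genes rose in input (FTH1 and FTL), beside 11.8% of all genes tested. Another 2 fell (TFRC and IREB2), beside 10.6% of all genes, and the remaining 2 did not pass. In RPF, 3 of 6 rose (FTH1, FTL and ACO1), beside 16.2% of all genes, and 0 fell, beside 13.1%. In TE, 0 of 6 rose, beside 2.7% of all genes, and 2 fell (FTH1 and FTL), beside 2.08%. edgeR on recovered reads gave the same counts of 3 and 0 in RPF, beside 14.3% and 13.5% of all genes, and of 0 and 2 in TE, beside 3.13% and 3.68%. The median RPF log2 change was 0.25 over the 6 genes and 0.02 over all genes tested, and the median TE log2 change was 0.26 and 0.02.

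The ferritin TE changes were also ranked among genes whose mRNA was called higher. The input libraries enter both measures, and their part in the TE changes was not tested. Among all 1355 genes called higher in input, the median TE log2 change was -0.25, 93 (6.86%) were called lower in TE, and FTH1 and FTL stood at the 17.9 and 16.8 percentile. Among the 339 of them with input at least 2-fold higher, the median TE log2 change was -0.25, and 14 (4.13%) were called lower in TE. Within that group, the TE changes of FTH1 and FTL stood at the 31.0 and 29.8 percentile.

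**Figure D3:**
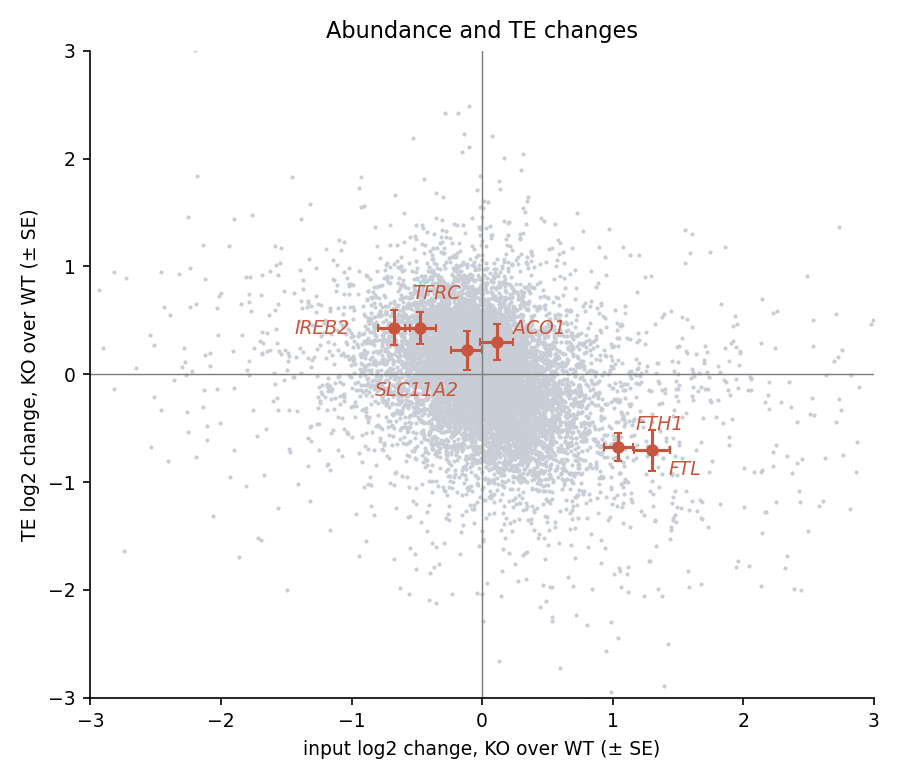
Input log2 change (horizontal axis) against TE log2 change (vertical axis), METTL5-KO over METTL5-WT, for all genes tested in both (grey) and the iron genes (red, ± SE). FTH1 and FTL lie at the lower right, TFRC and IREB2 at the upper left. The input libraries enter both axes, and 57 genes lie outside the limits of ±3.

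Other genes of the TE table with a 5′ UTR hairpin match included ENC1, PRPF18 and ADGRD1, named for the match and not for their values. The TE log2 changes of ENC1, PRPF18 and ADGRD1 were 0.46 ± 0.71, 0.33 ± 0.42 and -0.35 ± 0.87, none called. RPF of ENC1 were only 4.75 and 4.01 normalised reads in METTL5-WT against 20.5 and 13.4 in METTL5-KO. Those of ADGRD1 were 7.13 and 18.0 against 13.3 and 4.46. The TE changes of ENC1 and ADGRD1 are therefore imprecise. The named genes are not all those with such a match, and their values do not describe the rest. Of the 28 genes of the TE table with a 3′ UTR match, TFRC included, 0 were called higher in TE and 1 lower, the RNA-editing enzyme ADARB1 at -0.78 ± 0.19 (limma adjusted p = 0.0285). Over all genes 2.7% were called higher and 2.08% lower, so these counts were near that background. Their median TE log2 change was 0.09.

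TE in METTL5-WT alone gave a baseline for each gene. Ferritin footprints are hard to place (above), so the ferritin baselines and their ranks are uncertain to that extent. This baseline was the log2 ratio of RPF to input, whose 0 is set by the joint scaling of both library types and whose median over all genes was 0.01. Of the 6 genes, ACO1 was called higher at 1.25 ± 0.12 (SE), beside 33.7% of all genes. FTL at -1.39 ± 0.14, SLC11A2 at -0.71 ± 0.13 and FTH1 at -0.45 ± 0.09 were called lower, beside 33.6%. TFRC at -0.17 ± 0.11 and IREB2 at -0.22 ± 0.11 were not called (all limma). IREB2 was called higher with a GC trend removed (0.24, adjusted p = 0.0357) and lower with a length trend removed (-0.27, adjusted p = 0.0458), which made 5 calls among the 6 genes with the length trend removed and 5 with the GC trend removed. FTL had the lowest baseline of the 6 genes, at the 12.9 percentile of all genes, and ACO1 the highest, at the 87.0 percentile. Per length, with the canonical transcript as the input length, FTL stood at the 5.51 percentile and ACO1 at the 91.8 percentile. SLC11A2 turned from -0.71 to 0.07 when input was divided by the length of all annotated exons, and stayed below 0, at -0.55, with the canonical transcript.

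**Figure D4:**
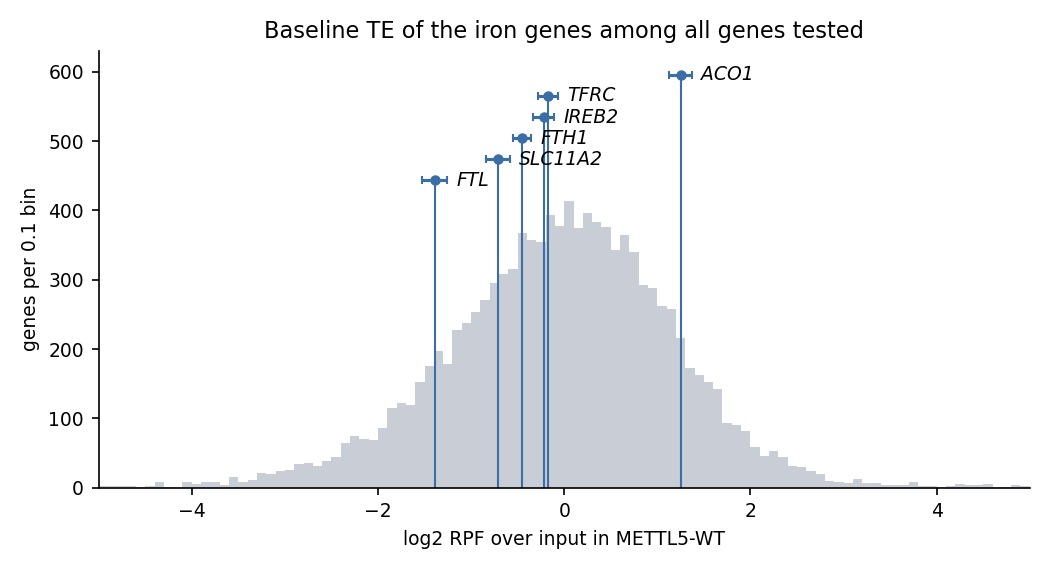
Baseline TE in METTL5-WT, as log2 RPF over input (horizontal axis), against the number of genes per 0.1 bin (vertical axis). Blue lines mark the 6 iron genes with their SE, from FTL at -1.39 to ACO1 at 1.25, and 62 genes lie outside the limits of ±5.

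On a per-length scale, the order of input levels in METTL5-WT was FTL at 10389 ± 573 normalised reads per kb of transcript (SD, n = 2), FTH1 at 2716 ± 96, TFRC at 2315 ± 115, IREB2 at 274 ± 17, SLC11A2 at 180 ± 3.7 and ACO1 at 57.8 ± 0.82. Ferritin light chain mRNA was thus by far the most abundant, and no neighbours in this order overlapped. The order of footprint levels in METTL5-WT was FTL at 6599 ± 932 normalised reads per kb of coding sequence, TFRC at 4510.4 ± 140, FTH1 at 4348 ± 26, IREB2 at 516 ± 38, ACO1 at 385 ± 50 and SLC11A2 at 271 ± 38. Here also no neighbours overlapped, although TFRC and FTH1 were close. The places of FTL and FTH1 among footprints carry the uncertainty of ferritin reads given above. In METTL5-KO footprints, FTH1 at 5673 ± 63 stood above TFRC at 4409.6 ± 214, and ACO1 at 514 ± 17 stood above IREB2 at 439 ± 14.

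The genes whose pattern over the 8 libraries was most like that of FTH1 were ADAM12, STX3 and FNIP2, at Euclidean distances of 0.417, 0.421 and 0.456 between centred log2 values. Their input log2 changes were 0.88, 0.77 and 0.91, and their TE log2 changes -0.66, -0.25 and -0.43. For TFRC they were LMAN1, LIMA1 and PDS5B, at distances of 0.129, 0.195 and 0.199. The input log2 change of TFRC's neighbours ran from -0.44 to -0.39, and their TE log2 change from 0.37 to 0.42. These are descriptions of 8 libraries and carry no test.

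Around these genes, 79 further genes of iron metabolism were listed in 7 groups. Over all of them, 8 of 68 tested rose and 6 fell in input, beside 11.8% and 10.6% of all genes. In RPF, 22 of 67 rose and 10 fell, beside 16.2% and 13.1% of all genes, and in edgeR on recovered reads 19 rose and 10 fell, beside 14.3% and 13.5%. In TE, 1 of 67 rose and 1 fell, beside 2.7% and 2.08% (1 and 2 in edgeR, beside 3.13% and 3.68%). The input counts, the RPF falls and the TE counts were near or under the shares of all genes. Their median log2 change was 0.12 in input, 0.14 in RPF and 0.06 in TE over the listed genes, and -0.00, 0.02 and 0.02 over all genes tested.

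Of these groups, heme handling held the largest called rise in input and in RPF. HMOX1, the oxygenase that frees iron from heme, had 127 and 138 normalised reads in METTL5-WT input against 299 and 311 in METTL5-KO input. Its RPF were 105 and 146 in METTL5-WT against 340.1 and 361 in METTL5-KO. Both measures were clearly separate between genotypes. HMOX1 rose by 1.19 ± 0.15 (SE) on the log2 scale in input (edgeR adjusted p = 3.19e-06) and by 1.49 ± 0.19 in RPF (limma adjusted p = 2.41e-05). BLVRB, a biliverdin reductase, rose in input by 0.88 ± 0.14, and SLC48A1, a heme transporter of endosomes and lysosomes, by 0.69 ± 0.14. In footprints, the heme and folate carrier SLC46A1 fell by 0.74 ± 0.17 on the log2 scale. FLVCR2 fell by 0.98 ± 0.33 in limma (adjusted p = 0.0368) but not in edgeR (adjusted p = 0.0505). Of 18 genes tested in this group, 3 rose and 0 fell in input, beside 11.8% and 10.6% of all genes. In RPF 7 rose and 4 fell (6 and 3 in edgeR), beside 16.2% and 13.1% of all genes. In TE 0 were called, beside 2.7% of all genes higher and 2.08% lower.

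Among mitochondrial iron and iron-sulfur cluster genes, 3 of 26 rose and 2 fell in input, which is no more than the 11.8% and 10.6% of all genes. In RPF 6 rose and 2 fell (6 and 3 in edgeR), beside 16.2% and 13.1% of all genes. In TE 0 were called, beside 2.7% of all genes higher and 2.08% lower. CIAPIN1 and NFS1, which act in iron-sulfur cluster assembly, fell in input by 0.49 ± 0.13 and 0.45 ± 0.14 on the log2 scale. In RPF, the cluster assembly factors ISCA1 and HSCB rose by 1.26 ± 0.28 and 0.94 ± 0.27, and the mitochondrial iron importer SLC25A28 by 1.12 ± 0.22. The ISCA1 rise rested on few reads, 10 and 6 in METTL5-WT RPF against 32 and 41 in METTL5-KO RPF. HSCB had 26 and 22 RPF reads in METTL5-WT against 78 and 97 in METTL5-KO. In input SLC25A28 rose by 0.62 ± 0.21 as well, with MMS19 at 0.49 ± 0.12 and ISCU at 0.37 ± 0.12. GLRX5, a mitochondrial glutaredoxin, fell in RPF by 0.40 ± 0.13.

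The group for sensing and degradation of the iron regulatory proteins held both TE calls of limma. CUL1, the scaffold of the ubiquitin ligase that removes IREB2, had 1187 and 1308 normalised reads in METTL5-WT input against 955 and 925 in METTL5-KO input. Its RPF were 1059.6 and 1107 in METTL5-WT against 1475 and 1310.2 in METTL5-KO. Input was the lower and footprints the higher in both METTL5-KO lysates, and the TE of CUL1 rose by 0.77 ± 0.15 (SE) on the log2 scale (limma adjusted p = 0.0109, edgeR adjusted p = 0.00472). HERC2, a ubiquitin ligase that acts on the iron sensor FBXL5, had 618 and 624 in METTL5-WT input against 656 and 761 in METTL5-KO input. RPF of HERC2 were 684 and 692 in METTL5-WT against 474 and 411 in METTL5-KO, so that its footprints were the lower and its input the higher in METTL5-KO. The TE of HERC2 fell by 0.83 ± 0.18 (limma adjusted p = 0.0155, edgeR adjusted p = 0.00462). In RPF, 4 of the 5 genes of this group rose in limma, beside 16.2% of all genes, and 3 in edgeR, beside 14.3%. In both, 1 fell (HERC2), beside 13.1% and 13.5%. In input 1 of the 5 fell, CUL1 by 0.42 ± 0.12, beside 10.6% of all genes. The level of FBXL5 mRNA in input changed by 0.32 ± 0.12 on the log2 scale, which did not pass (edgeR adjusted p = 0.0521).

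Of the other mRNAs listed as carrying an iron responsive element, 2 of 5 rose in input and 1 fell (APP), beside 11.8% and 10.6% of all genes. EPAS1, the hypoxia-inducible factor HIF-2 alpha, rose by 0.77 ± 0.12 (SE; edgeR adjusted p = 5.04e-05), and its TE log2 change of -0.59 ± 0.20 did not pass (limma adjusted p = 0.0953). APP, the amyloid precursor protein, fell in input by 0.53 ± 0.11. In RPF 0 of the 5 rose and 1 fell (APP, by 0.30 ± 0.10), beside 13.1% of all genes falling. In TE 0 were called in limma, beside 2.7% of all genes higher and 2.08% lower. In edgeR 1 fell in TE, beside 3.68% of all genes.

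In the group of export and systemic control, 4 of 9 genes were tested, and HAMP, the hepcidin hormone of hepatocytes, had 0 counts in METTL5-WT against 2 and 0 in METTL5-KO. NEO1, a receptor that binds hemojuvelin, fell in input by 1.77 ± 0.54, from 25 and 21 counts to 8 and 9. The protease FURIN fell in RPF by 0.87 ± 0.12 (limma adjusted p = 7.24e-05). In input 0 genes of this group rose and 2 fell (NEO1 and FURIN), beside 11.8% and 10.6% of all genes. In RPF 0 rose and 2 fell (FURIN and BMP6), beside 16.2% and 13.1%. In TE 0 of 4 were called, beside 2.7% higher and 2.08% lower. Of the ferritin handling partners, 0 of 3 were called in input, beside 11.8% and 10.6% of all genes. In TE 0 of 3 were called, beside 2.7% and 2.08%. In RPF 2 rose, beside 16.2% of all genes: NCOA4, the receptor for ferritin breakdown, by 0.54 ± 0.12 and the iron chaperone PCBP1 by 0.45 ± 0.10. Of the other uptake and reduction genes, 0 of 7 were called in input, beside 11.8% and 10.6% of all genes. In RPF 3 of 6 rose (CYBRD1, SLC39A8 and SLC39A14, of which 2 in edgeR), beside 16.2% of all genes in limma and 14.3% in edgeR. In TE 0 of 6 were called, beside 2.7% and 2.08%.

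**Figure D5:**
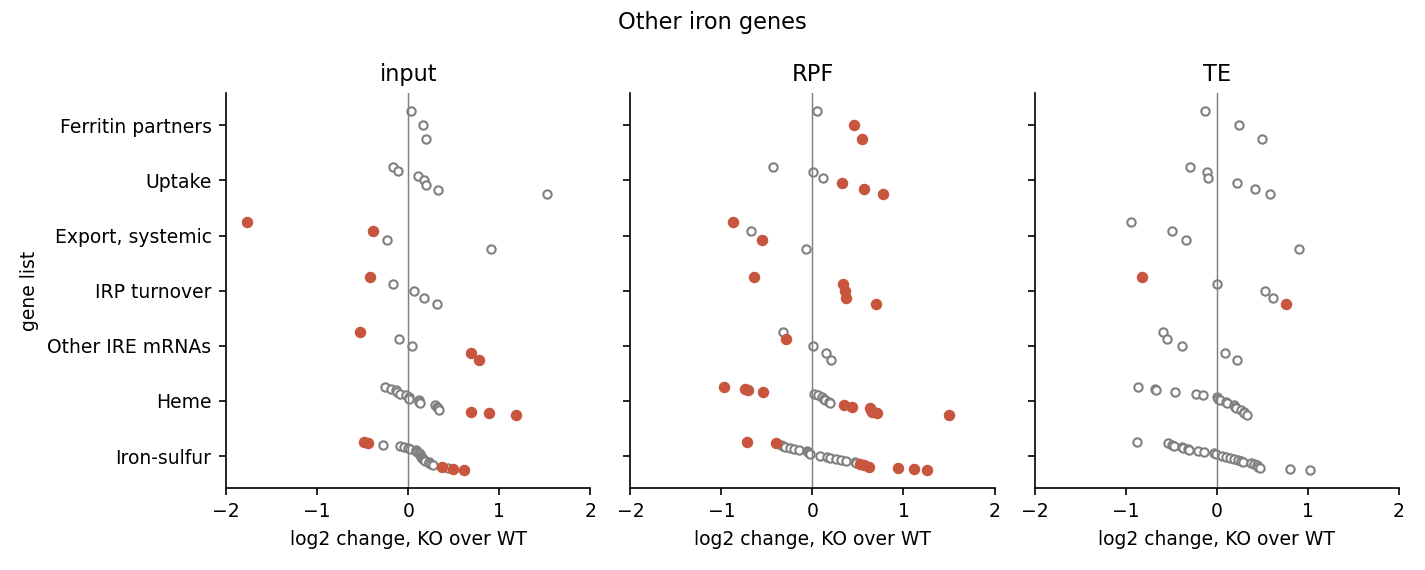
Log2 change in METTL5-KO over METTL5-WT (horizontal axis) of the other iron genes tested, by list (vertical axis), in input, RPF and TE. Each point is a gene, and red points passed an adjusted p of 0.05. In TE, CUL1 (0.77) and HERC2 (-0.83) are the red points.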

How the data were processed

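Input reads were trimmed with BBDuk, aligned to hg38 with STAR 2.7.3a and counted by strand over exons from uniquely mapped reads (featureCounts 1.6.0 in the submitters' processing notes, 2.0.1 in the file header), and the authors deposited the counts of 60718 genes, after 3 lines of a broken gene were left out. The authors trimmed RPF reads, removed rRNA and used RiboToolkit. The TE table's deposited signal is called RPKM by the authors, yet 100% of its values were whole reads times a constant per library (tolerance 0.01 reads), so depth was known and count tests were run on the recovered reads. The authors' own log2 fold change, p-value and adjusted p-value of TE in that table were not used.

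Input counts were tested with edgeR 4.0.16 (filterByExpr, TMM, quasi-likelihood, 14054 genes). RPF, TE (the interaction of genotype and library type) and the METTL5-WT baseline were fitted as log2(value + 1) of 8 libraries in a single limma 3.58.1 model (eBayes, variance trend), for the 11240 genes whose mean reached 1 in input and in RPF. Fold changes in RPF and TE are on that scale, which understates changes of low genes. RPKM had been assumed beforehand, so the log-scale test was kept and edgeR on recovered reads was run beside it. Adjusted p-values are Benjamini-Hochberg over all genes tested, two-sided, and a gene was called under 0.05. Percentiles are ranks among all genes tested. DESeq2 1.42.0 and R 4.3.3 served for alternatives and Python 3.11.15 for sequences and figures. The tests were tried on simulated data. Exact permutation of 2 against 2 libraries cannot go below p = 0.333, so no such test was run.

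Groups came from the sample titles. An input and an RPF library with the same genotype and number share a lysate, per the protocol. Their deviations correlated at -0.016 in METTL5-WT and 0.053 in METTL5-KO, and same-numbered libraries of the genotypes at 0.039 in input and -0.002 in RPF. These values show no pairing of the genotypes by number. They show none by lysate either, so the shared lysate rests on the protocol and the sample numbers alone.

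All 8 iron genes were named, with METTL5 as the check. Of the other iron genes, up to 4 of the largest rises and falls per comparison were named, taken from called genes whose mean reached 10 and whose genotypes did not overlap. NCOA4, PCBP1, FBXL5, HAMP, BMP6, MMS19, ISCU, GLRX5, CYBRD1, SLC39A8, SLC39A14 and ADARB1 were named after their values were seen. The members and lists were chosen with earlier results of these data known. Gene positions are those of the count table (hg38). GC content and lengths came from GENCODE release 44. Protein sequences were not used here, and a few genes the rule would name are not reported here.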

Additional observations from a re-analysis of the deposited data

How the results depend on the processing

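Of the 6 genes tested, 4 were called in input, 3 in RPF, 2 in TE and 4 in the baseline. Without the variance trend these became 1 in RPF and 0 in TE. The TE count was 1 with libraries centred on their median and 1 with a GC trend removed. Leaving out a library or lysate in turn gave 3 to 4 in input, 1 to 2 in RPF, 0 to 1 in TE and 4 to 4 in the baseline, which had 5 calls with a GC trend and 5 with a length trend removed. Values that turned sign were the RPF change of TFRC, 0.053 with a length trend removed and -0.083 to 0.016 with a lysate left out (positive without METTL5-KO replicate 2), and that of SLC11A2, -0.024 to 0.261 with a lysate left out (negative without METTL5-WT replicate 2). In the baseline, they were TFRC at 0.17 and IREB2 at 0.24 with a GC trend removed, and SLC11A2 at 0.067 per exon length. None of these 6 genes' input or TE changes turned sign under the alternatives run. A replicate block on the number, or on the lysate for TE and the baseline, left the calls at 4 in input, 3 in RPF, 2 in TE and 4 in the baseline, with the TE of FTH1 at adjusted p = 0.012 and of FTL at 0.042 under the block on the number, and 0.0048 and 0.012 under the block on the lysate (limma). FTH1 lost its RPF call under quantile normalization (adjusted p = 0.0683), with a length trend removed (0.0577) and without either METTL5-WT lysate (0.0533 and 0.0630), FTL without METTL5-WT replicate 2 (0.0553) and ACO1 without the lysates named above. IREB2 gained an RPF call under quantile normalization (0.0484) and with a GC trend removed (0.0196). Over all genes, TE calls numbered 538, and 1 without the variance trend, 377 with a GC trend removed, 766 in edgeR, 838 in DESeq2, 794 with the lysate block and 4 to 265 with a lysate left out. RPF calls were 3288, and 1983 to 2773 with a lysate left out. Input calls were 3149, with 2182 in DESeq2, 1947 in limma, 1926 with a GC trend removed and 1220 to 5474 with a library left out. The cause of these differences was not tested. Adding pseudogene counts and the canonical transcript length were chosen after seeing the data. The METTL5-WT RPF depth limits low genes most.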
